A study of Homo sapiens with 4 samples.

Results

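The 8 genes described here, UBR1, UBR2, UBR3, UBR4, BIRC6, HUWE1, HERC1 and HERC2, encode very large E3 ubiquitin ligases, and their mRNAs were examined for IGF2BP3 peaks in OE-19 cells. The genes were chosen from a reading of these same peak lists, around UBR4 and BIRC6, which hold very many peaks, so the number of peaks on them is a description and was not tested. A peak belonged to a gene when its summit, the position of the highest signal, lay in an exon of that gene in GENCODE release 44. By this rule, 373 of 44622 peaks in replicate 1 and 375 of 42723 peaks in replicate 2 were on the 8 genes. Of the peaks with a summit in an exon of any gene, 42720 and 41066 in the respective lists, they were a small part.

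The samples came from OE-19 cells, a line established from an esophagogastric junction adenocarcinoma (AEG), for which the labels name no treatment or genetic change. RNA bound to IGF2BP3 was pulled down with an anti-IGF2BP3 antibody and sequenced (RIP-seq) in 2 replicates, and 2 input libraries, made without antibody, accompanied them. The labels describe fixation with UV of 264 nm at 400 mJ before lysis, whereas the RIP methods of the study do not mention it. Input values were not analysed here, so that a peak carries only the comparison with background that the authors' peak caller had made. With 1 cell line and 2 replicates, each value is given for both replicates, and where a mean is given its error is the SD over n = 2. Peak lists hold no expression values, and how far peak numbers follow the abundance of an mRNA cannot be told apart from how much of it was bound. The defining markers of the cell line could not be checked for the same reason.

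Ubiquitin ligases pass ubiquitin from a carrier enzyme (E2) to a substrate protein, which is often then degraded by the proteasome. UBR1 and UBR2 recognise proteins by destabilising residues at their N terminus (N-degrons) through a UBR box, a domain that UBR3 and UBR4 share. BIRC6 is an inhibitor of apoptosis protein that carries an E2 domain of its own and binds caspases. HUWE1, HERC1 and HERC2 are HECT ligases, which take the ubiquitin onto a cysteine of their own before handing it on. IGF2BP3 is an RNA-binding protein known to stabilise mRNAs and to favour transcripts carrying N6-methyladenosine (m6A).

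The sites at which both replicates gave a strong peak in the same exon are shown first, since they are the positions on these mRNAs that the 2 lists support best. The caller's q is its p-value corrected for multiple testing, and a q of at most 0.05 is called strong below. In only 7 of 293 pairs of overlapping peaks on the 8 genes did both peaks reach it, and in 6 of the 7 both summits were in the same exon, all of coding sequence (CDS). Each is printed 5′ to 3′ on the mRNA strand from GRCh38 (hg38), as the whole exon, with the bases inside the peaks of both replicates in capitals.
UBR4 exon 21, chr1:19174954-19175033, minus strand: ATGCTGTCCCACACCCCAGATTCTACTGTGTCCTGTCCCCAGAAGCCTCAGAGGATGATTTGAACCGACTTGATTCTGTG
BIRC6 exon 24, chr2:32463194-32463381, plus strand: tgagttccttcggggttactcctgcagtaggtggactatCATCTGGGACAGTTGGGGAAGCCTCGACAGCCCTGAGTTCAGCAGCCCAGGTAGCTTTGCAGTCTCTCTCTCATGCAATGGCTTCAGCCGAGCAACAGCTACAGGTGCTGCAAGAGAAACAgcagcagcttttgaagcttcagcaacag
BIRC6 exon 67, chr2:32593915-32594060, plus strand: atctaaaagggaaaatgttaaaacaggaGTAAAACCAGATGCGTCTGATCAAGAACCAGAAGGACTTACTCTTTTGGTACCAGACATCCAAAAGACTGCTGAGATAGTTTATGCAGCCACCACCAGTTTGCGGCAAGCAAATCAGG
UBR3 exon 31, chr2:170029346-170029448, plus strand: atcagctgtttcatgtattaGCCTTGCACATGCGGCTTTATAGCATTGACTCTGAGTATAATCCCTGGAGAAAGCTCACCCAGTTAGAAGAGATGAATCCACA
UBR3 exon 36, chr2:170073428-170073607, plus strand: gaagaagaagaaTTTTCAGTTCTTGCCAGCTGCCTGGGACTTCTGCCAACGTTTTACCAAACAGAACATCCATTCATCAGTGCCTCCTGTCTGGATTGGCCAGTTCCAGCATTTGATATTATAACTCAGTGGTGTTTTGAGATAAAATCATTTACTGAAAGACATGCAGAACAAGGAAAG
HUWE1 exon 79, chrX:53536380-53536667, minus strand: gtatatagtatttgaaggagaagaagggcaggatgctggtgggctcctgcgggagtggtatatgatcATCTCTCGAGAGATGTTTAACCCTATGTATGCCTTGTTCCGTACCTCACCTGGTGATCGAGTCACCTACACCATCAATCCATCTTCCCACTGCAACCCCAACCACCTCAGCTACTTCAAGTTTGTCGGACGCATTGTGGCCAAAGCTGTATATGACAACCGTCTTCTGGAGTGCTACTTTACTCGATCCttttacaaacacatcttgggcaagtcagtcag

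In UBR4 exon 21, an exon of 80 nt, both peaks covered every base, with a fold enrichment of 6.16 in replicate 1 and 5.69 in replicate 2. Fold enrichment is the ratio of RIP signal to local background at the summit, as deposited. In BIRC6 exon 24 the folds were 4.54 and 7.18, and in BIRC6 exon 67 they were 5.17 and 6.17. The 2 UBR3 sites had folds of 4.88 and 4.56 in exon 31 and of 5.72 and 4.85 in exon 36. HUWE1 exon 79 had 5.69 and 5.39, with summits 6 bp apart. The summits at the other five sites lay 16 to 53 bp apart, so that the peaks of the replicates shared most of each exon. The remaining pair joined a peak in UBR4 exon 17 to one whose summit was in exon 16, and its sequence is not printed.

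The highest peak of each replicate stood at other sites. In replicate 1 it lay in BIRC6 exon 68, with a fold of 8.73 and a q of 9.61e-10, where the overlapping peak of replicate 2 had a fold of 2.63 and a q of 1. In replicate 2 it lay in HUWE1 exon 30, with a fold of 7.60 and a q of 6.54e-06, where replicate 1 gave a fold of 2.63 and a q of 1. The summits of each pair were 3 bp and 1 bp apart, respectively, so at these 2 sites the position recurred while the height did not. Each site was picked as the highest of its replicate, a choice that by itself favours a lower partner. The 2 exons are shown with the same use of capitals.
BIRC6 exon 68, chr2:32595034-32595144, plus strand: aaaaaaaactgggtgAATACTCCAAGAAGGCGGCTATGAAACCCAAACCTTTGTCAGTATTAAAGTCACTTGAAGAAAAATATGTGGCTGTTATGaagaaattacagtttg
HUWE1 exon 30, chrX:53595187-53595403, minus strand: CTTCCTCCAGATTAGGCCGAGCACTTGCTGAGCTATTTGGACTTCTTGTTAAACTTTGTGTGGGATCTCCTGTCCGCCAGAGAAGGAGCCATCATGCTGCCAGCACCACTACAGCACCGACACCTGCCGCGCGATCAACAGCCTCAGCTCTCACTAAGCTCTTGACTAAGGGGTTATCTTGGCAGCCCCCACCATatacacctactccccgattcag

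All 8 mRNAs held exonic summits in both replicates, compared with 28.1% of all 19688 protein-coding genes and 54.7% of the 772 whose CDS was at least 5000 nt long, the size class to which the 8 belong. This was fixed by the choice of genes. UBR4, a cytoplasmic N-degron ligase, held 88 peaks in replicate 1 and 79 in replicate 2. BIRC6 held 72 and 71, and HUWE1, a ligase whose known substrates include MCL1 and p53, held 65 and 69. By mean number of peaks, these genes were numbers 2, 4 and 6 of all protein-coding genes. HERC1 held 50 and 51 peaks and HERC2, a ligase known from the DNA damage response, 35 and 34. The shorter UBR mRNAs held fewer, with 25 and 26 peaks on UBR1, 25 and 29 on UBR3, and 13 and 16 on UBR2. Among genes just outside the list, the peak numbers in replicates 1 and 2 were 86 and 92 for SYNE2, 83 and 83 for BLTP1, 68 and 70 for DST, 64 and 63 for HECTD4, 63 and 57 for WDFY3, and 59 and 58 for VPS13C.

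**Figure D1:**
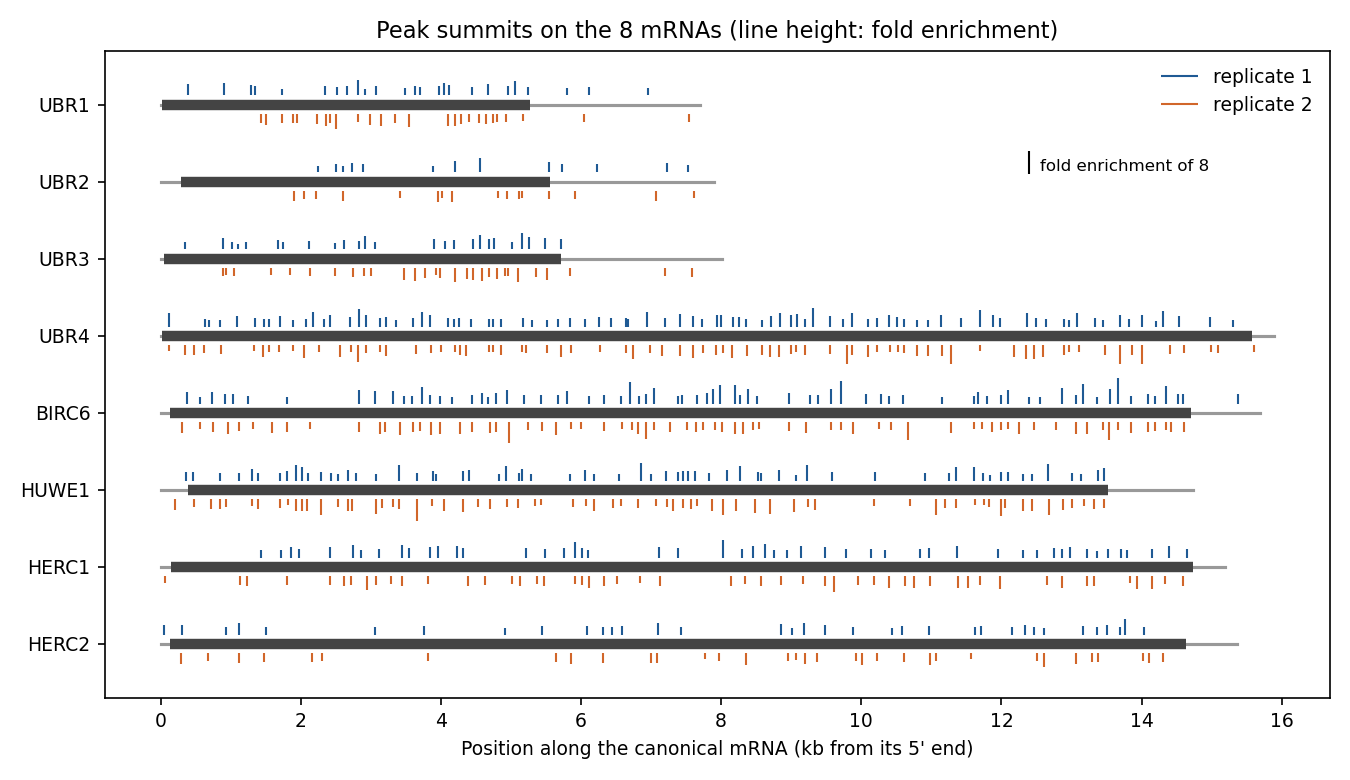
Peak summits along the canonical mRNA of each gene, in kb from its 5′ end, with the CDS as the thick bar and the UTRs as thin lines. Blue lines above the mRNA are summits of replicate 1 and orange lines below are summits of replicate 2, with a height in proportion to fold enrichment. Summits run along the whole CDS of UBR4, BIRC6 and HUWE1, whereas on UBR2 none lies in the first part of the CDS and several lie in the 3′ UTR.

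Relative to the length of the canonical mRNA, the genes differed in summit density. UBR4 (mRNA of 15892 nt) had 5.54 and 4.97 summits per kb in replicates 1 and 2, a mean of 5.25 ± 0.400. BIRC6 (15687 nt) had 4.59 and 4.53 per kb, and HUWE1 (14731 nt) 4.34 and 4.62. The values of BIRC6 and HUWE1 overlapped each other, and both lay below those of UBR4. UBR3 had 3.12 and 3.62 summits per kb, HERC1 3.29 and 3.36, and UBR1 3.25 and 3.38. The 3 genes overlapped, although the UBR1 and UBR3 mRNAs (7698 and 8009 nt) were about as long as each other and HERC1 (15197 nt) was far longer. HERC2 (15364 nt) followed with 2.28 and 2.21 per kb and UBR2 (7891 nt) with 1.65 and 2.03, without overlap between them. Thus mRNAs of nearly equal length differed widely in summit density, with UBR4 and HERC2 at opposite ends among the long ones and UBR3 and UBR2 among the shorter ones.

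The 414 other mRNAs with a CDS of at least 5000 nt and summits in both replicates had a median of 1.82 summits per kb, with quartiles of 0.960 and 2.77 and a highest value of 5.31. Ranked by density among the 422 mRNAs of this class, UBR4 was number 2, BIRC6 number 8 and HUWE1 number 10, UBR3, HERC1 and UBR1 were numbers 67, 70 and 72, HERC2 was number 156 and UBR2 number 214. Since the genes were picked for their peaks, these ranks describe the choice. UBR2 lay at the median of its class.

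**Figure D2:**
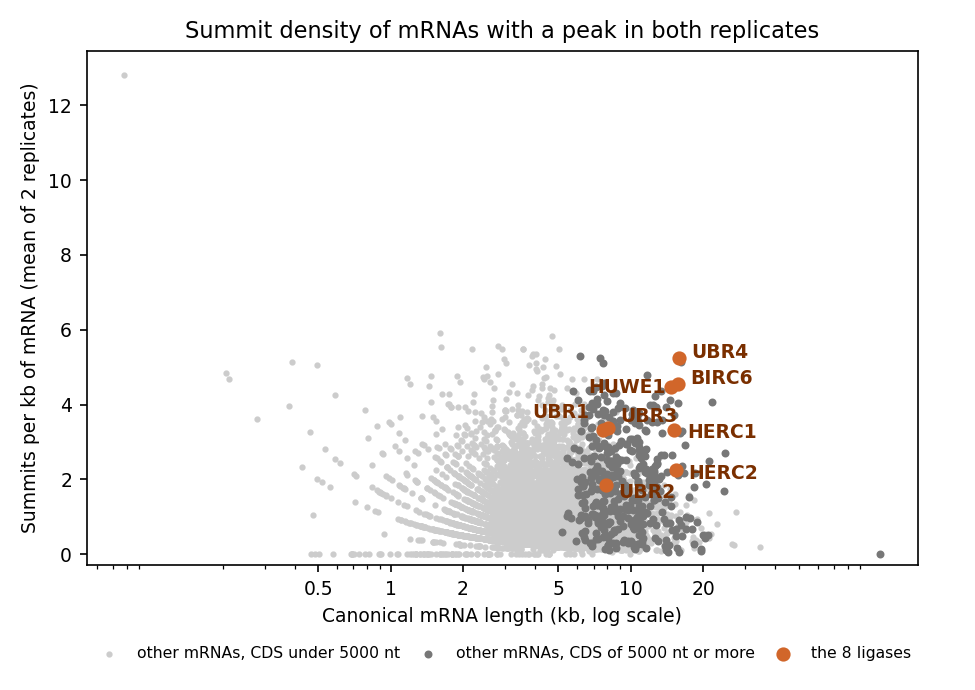
Summits per kb of canonical mRNA (mean of the 2 replicates) against mRNA length in kb on a log scale, for the 5523 protein-coding genes with an exonic summit in both replicates. UBR4, BIRC6 and HUWE1 (orange) lie at the upper edge of the long mRNAs (dark grey), at 5.25, 4.56 and 4.48 per kb, and UBR2 lies within them at 1.84. Points at 0 are genes whose summits lie in exons outside the canonical mRNA.

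The mRNAs outside the list most like UBR4 in length and density were BLTP1, at a distance of 0.0410 on the combined log2 scales of the 2 measures, then VPS13C at 0.363 and WDFY3 at 0.373. For BIRC6 they were HECTD4 and BLTP1, both at 0.177, and WDFY3 at 0.181. BLTP1, with 5.14 summits per kb on 16162 nt, lay nearer to UBR4 than BIRC6's nearest neighbour lay to BIRC6. The likeness was taken over the 2 RIP samples.

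Where an exon held a summit, it nearly always held a single one. The canonical mRNAs of the 8 genes had 568 exons, of which 363 (63.9%) held a summit in replicate 1 and 364 (64.1%) in replicate 2, while in the other long mRNAs 45.6% and 45.7% of 15726 exons did. Of the exons with a summit, 359 in each replicate held exactly 1 (98.9% and 98.6%), and the most in any exon was 5 in replicate 1 and 4 in replicate 2. A single summit per occupied exon was general to these lists, at 95.5% and 95.9% in the other long mRNAs and 91.9% and 92.6% over all mRNAs. When UBR4 and BIRC6 were left out, the share of exons with a summit was 54.3%.

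BIRC6 was the most evenly covered. A summit was present in both replicates in 66 of its 74 exons and in 1 replicate in 7, which left only exon 8, of 161 nt, without any. Exons 22 to 47 formed an unbroken run of 26 exons with a summit in both replicates. In UBR4, 72 of 106 exons held a summit in both and 11 held none, and in HUWE1 the numbers were 57 and 9 of 84. Their longest runs with summits in both were 11 exons each, exons 65 to 75 of UBR4 and 47 to 57 of HUWE1. The coverage of UBR3 and HERC1 was intermediate, with 20 of 39 and 34 of 78 exons in both.

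Fewer exons held summits in the last 3 genes. In HERC2, 18 of 93 exons held a summit in both replicates, 33 in 1 of them and 42 in none. UBR1 had 12 exons in both, 22 in 1 replicate and 13 in none. In UBR2 only 4 of 47 exons had a summit in both and 29 had none, among them the unbroken run of exons 1 to 13. Cut into 5 equal parts, the CDS of UBR2 had 0 summits in its first part in either replicate, and that of UBR1 had 2 and 0. The 8 CDS together had 58 and 57 summits in the first part, against 84 and 84 in the last. UBR4 went the other way, with 18 and 16 in the first part and 15 and 13 in the last. HUWE1 was near equal, with 15 and 15 against 15 and 16. The remaining members had more in the last part in both replicates.

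**Figure D3:**
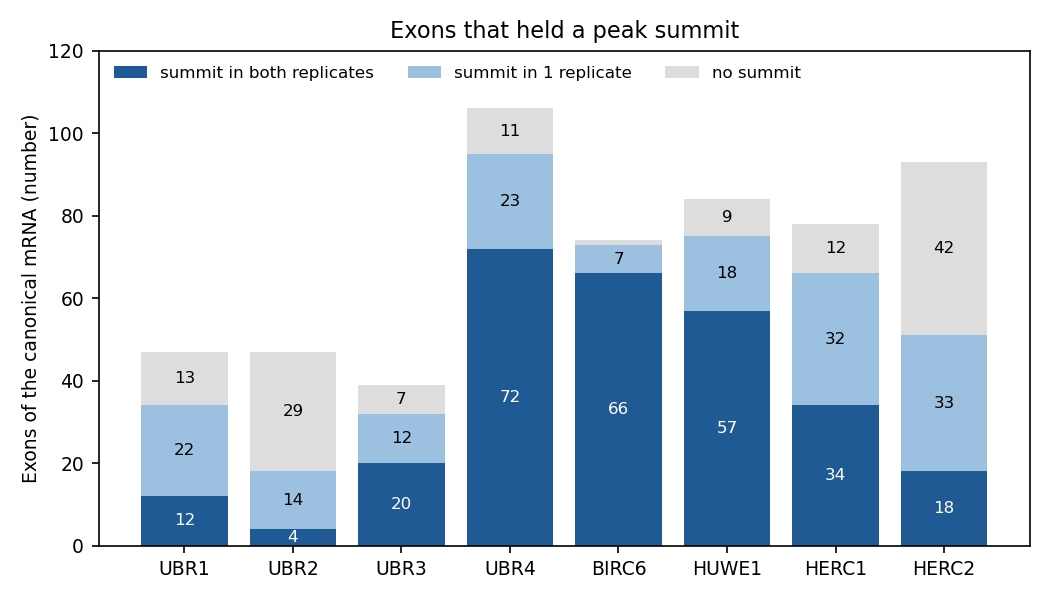
Number of exons of each canonical mRNA with a summit in both replicates (dark blue), in 1 replicate (light blue) or in none (grey); the bars add up to all exons of the mRNA. BIRC6 has 66 of 74 exons in the dark class, whereas UBR2 has 4 of 47 and HERC2 18 of 93.

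UBR1 and UBR2 are close paralogs, and their exons could be set side by side. Both mRNAs have 47 exons, and of the 45 inner ones 28 had the same length in both genes, with a median identity of 62.7% between exons of the same number. A summit in at least 1 replicate was present in 33 of these exons in UBR1 and in 17 in UBR2. They coincided in 13 exons, 76.5% of the UBR2 exons, which was near the 73.3% of UBR1 exons that held a summit at all. Among the inner exons, only exons 21 and 32 had a summit in both replicates in both genes, and the last exon, number 47, did as well. Exon 32 of each is printed to show where the peaks of the replicates met.
UBR1 exon 32, chr15:43002555-43002704, minus strand: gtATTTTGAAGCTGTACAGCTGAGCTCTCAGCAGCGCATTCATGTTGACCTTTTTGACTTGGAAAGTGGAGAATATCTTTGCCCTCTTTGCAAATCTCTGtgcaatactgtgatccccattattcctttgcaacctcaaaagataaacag
UBR2 exon 32, chr6:42663258-42663419, plus strand: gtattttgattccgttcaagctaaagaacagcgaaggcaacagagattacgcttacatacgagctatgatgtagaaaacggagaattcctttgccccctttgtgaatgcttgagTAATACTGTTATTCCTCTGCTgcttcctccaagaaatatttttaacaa

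In UBR1 exon 32 the folds were 3.33 and 4.40, with q values of 1 and 0.0342, and 98 of the 150 nt lay in both peaks. In UBR2 exon 32 the folds were 2.35 and 3.81, with q values of 1 and 0.649, and 21 of 162 nt lay in both. The identity of the 2 exons was 61.7%.

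Longer exons, which offer more positions for a summit, held one more often. Rates per nt were not computed, and how far length alone gave this order was not tested. Of the inner exons of the 8 mRNAs shorter than 75 nt, 5.41% had a summit in both replicates. The share rose with each class of length, through 26.9%, 43.3%, 52.2% and 61.5%, to 68.4% at 200 nt or more. In the other long mRNAs the same classes went from 10.6% to 49.5%, so that the order held in both groups. The 8 genes were higher in every class but the shortest, which had 37 exons. Since they were picked for their peaks, the higher shares describe the choice. The 275 inner exons with a summit in both replicates had a median length of 158 nt and a median GC content of 47.3%. The 120 without any had 112.5 nt and 43.9%. In other long mRNAs the exons in both and those without any differed in length in the same way (160 and 123 nt), but not in GC content (46.4% and 47.5%).

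**Figure D4:**
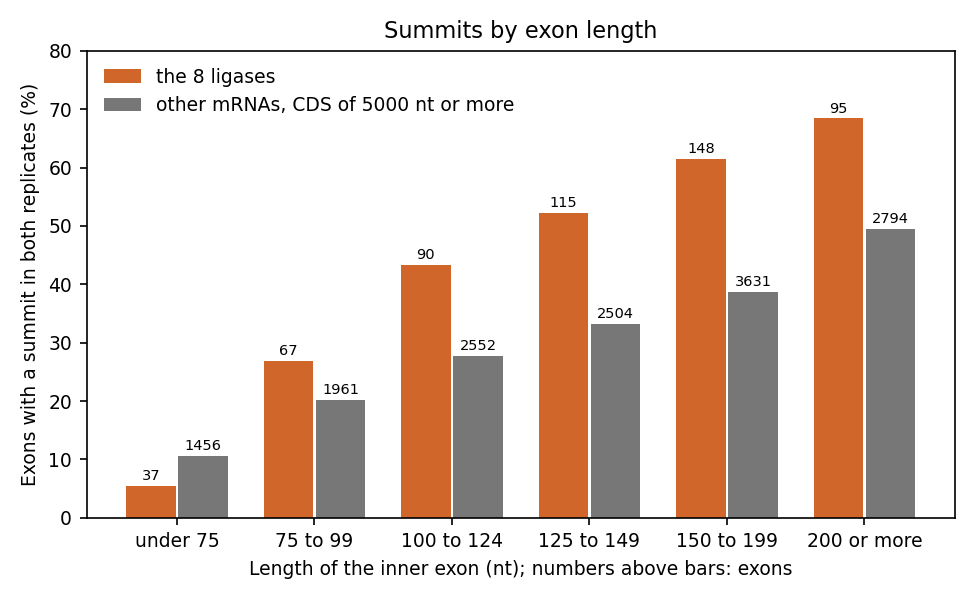
Share of inner exons with a summit in both replicates, in percent, by exon length in nt, for the 8 ligases (orange) and other mRNAs with a CDS of at least 5000 nt (grey); the number of exons stands above each bar. The share rises from 5.41% to 68.4% in the ligases and from 10.6% to 49.5% in the others.

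Many peaks had 1 edge near an exon end, and few had both. An edge of the peak lay within 10 bp of an exon end for 191 of 372 summits on the mRNAs in replicate 1 (51.3%) and 166 of 374 in replicate 2 (44.4%), a mean of 47.9% ± 4.92. Over all mRNAs the shares were 34.4% and 36.3%, and over the other long mRNAs 40.5% and 41.9%. The 8 genes were thus above both sets in both replicates, by a margin over the other long mRNAs that in replicate 2 was smaller than the spread between the replicates of the 8. Peaks had a median width of 121 and 118 bp, which came to a median of 81.6% and 79.2% of the length of their inner exon. When each inner exon was cut into 3 equal parts, 46.6% and 46.8% of summits were in the middle one, near the 45.6% and 44.2% in the other long mRNAs, where peak widths came to 73.8% and 72.4% of the exon. Of all bases in these peaks, 93.4% and 93.8% were exonic.

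By region of the mRNA, nearly all summits were in the CDS, with 362 of 372 in replicate 1 (97.3%) and 363 of 374 in replicate 2 (97.1%). The CDS made up 88.1% of the length of the 8 mRNAs. Over all mRNAs, the CDS held 77.3% and 78.7% of summits on 44.8% and 44.9% of the length. In the other long mRNAs it held 92.5% and 92.9% on 75.4% of the length, so that a high CDS share was common to long mRNAs. The 3′ UTRs, 10.7% of the length of the 8 mRNAs, held 8 and 9 summits (2.15% and 2.41%), and the 5′ UTRs held 2 and 2. Per kb this was 4.09 and 4.10 summits in the CDS and 0.744 and 0.837 in the 3′ UTR.

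UBR2 had the largest share of its summits in the 3′ UTR, though none of its 3′ UTR peaks had a q of at most 0.05. Its 3′ UTR held 4 of 13 summits in replicate 1 and 3 of 16 in replicate 2, or 1.72 and 1.29 per kb, next to 1.71 and 2.47 per kb in its CDS. The peaks of replicate 1 covered 52.6% of the UBR2 3′ UTR but only 12.1% of its CDS, and those of replicate 2 covered 31.9% and 22.8%. A single wide peak, of 769 bp in replicate 1 and 503 bp in replicate 2, gave a large part of the 3′ UTR coverage. UBR1 had 3 and 2 summits in a 3′ UTR of similar length, UBR3 had 0 and 3, and HUWE1, HERC1 and HERC2 had none in either replicate. In replicate 2 the 3′ UTR densities of UBR3 (1.31 per kb) and UBR4 (3.11 per kb, from 1 summit) were above that of UBR2. The coverage of the CDS by peaks was highest in BIRC6 (83.9% and 74.3%) and HUWE1 (74.8% and 71.4%), and was 64.6% and 57.2% in UBR4. It was near 40% in UBR1 (39.2% and 37.4%) and HERC1 (42.1% and 40.8%), 45.2% and 47.0% in UBR3, and 22.5% and 24.4% in HERC2.

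A comparison of the replicates asked how far the same positions recurred. On the 8 genes, 292 of 373 peaks in replicate 1 and 294 of 375 in replicate 2 overlapped a peak of the other replicate by at least 1 bp, a mean of 78.3% ± 0.0819. The share over all exonic peaks was 60.8% and 64.6%, and over the other long mRNAs 71.2% and 72.7%. The members ranged from 95.8% ± 1.94 in BIRC6, 90.3% ± 0.646 in HUWE1 and 88.2% ± 4.18 in UBR4 through 76.2% ± 5.36 in UBR3 and 67.3% ± 0.943 in HERC1 to 49.3% ± 1.01 in HERC2, 48.8% ± 7.14 in UBR2 and 47.1% ± 1.31 in UBR1. The genes with most overlap were those whose CDS was most covered by peaks, where a peak placed anywhere would meet one of the other replicate more often; its part in the overlap was not tested. Without UBR4 and BIRC6 the share was 69.0%, below that of the other long mRNAs. Summits of overlapping peaks were close together, with a median distance of 20 bp and 208 of 293 pairs (71.0%) within 50 bp. These distances were not computed for other mRNAs, and the overlap of narrow peaks itself limits them.

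Peak height did not recur in the same way. Over the 293 pairs, Pearson's r of log2 fold enrichment between replicates was 0.0321 and Spearman's rho 0.0408, whereas over all 28231 pairs in the lists they were 0.314 and 0.293. The pairs share their genes and libraries and are not independent, so these are descriptions. Within single genes, r was 0.522 in UBR3 (20 pairs), 0.0744 in UBR4 (74 pairs), 0.0163 in HUWE1 (60 pairs), −0.0607 in BIRC6 (69 pairs) and −0.259 in HERC1 (34 pairs). The values in UBR4, BIRC6 and HUWE1 were lower than the median of the 7 other mRNAs with at least 50 pairs, 0.125, but inside their range of −0.0814 to 0.245. With at least 20 pairs, 185 other mRNAs had a median r of 0.152, with quartiles of −0.000511 and 0.312. UBR3 was above the upper quartile, and HERC1 and BIRC6 were below the lower one.

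**Figure D5:**
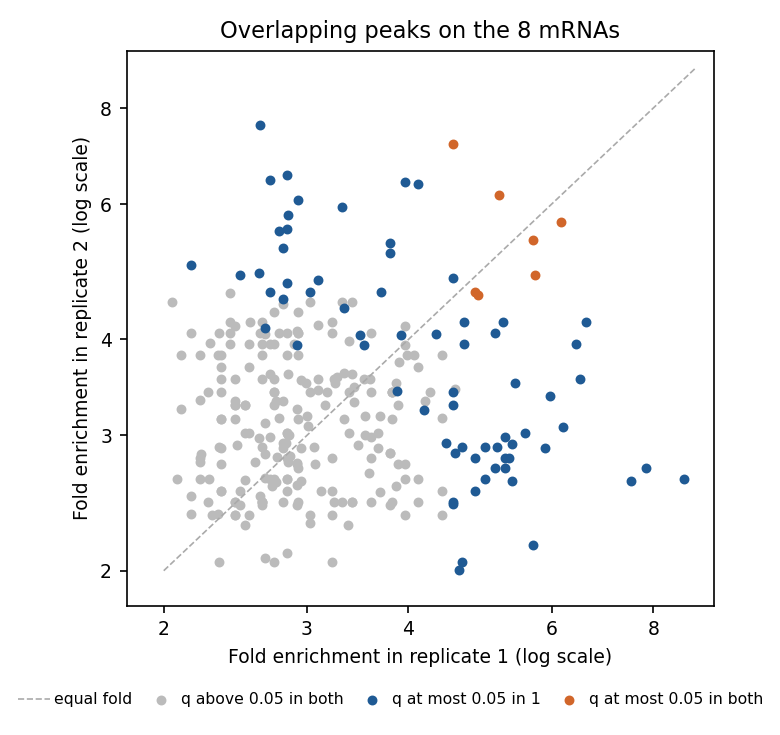
Fold enrichment of the 293 pairs of overlapping peaks on the 8 genes, replicate 1 against replicate 2, on log scales with the line of equal fold dashed. Orange points have a q of at most 0.05 in both replicates (7 pairs) and blue points in 1 of them; the highest point of each replicate, at 8.73 and 7.60, has a fold of 2.63 in the other.

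Most peaks on these mRNAs were weak by the caller's own correction. Strong peaks, with a q no higher than 0.05, numbered 55 of 373 in replicate 1 (14.7%) and 36 of 375 in replicate 2 (9.60%), next to 10.1% and 7.7% of all exonic peaks and 13.3% and 10.6% of those on other long mRNAs. A q of 1 was assigned to 58.2% and 57.1%. The difference between replicates was mainly in BIRC6, which held 18 strong peaks in replicate 1 and 4 in replicate 2. UBR4 held 12 and 9, HUWE1 10 and 10, UBR3 5 and 4, UBR1 5 and 3, HERC1 3 and 5, HERC2 1 and 1, and UBR2 1 and 0. Of the 48 pairs with a strong peak in replicate 1, the partner was strong in 7 and had a q of 1 in 27. Of the 33 with a strong peak in replicate 2, the partner was strong in 7 and had a q of 1 in 18. Restricted to strong peaks, a mean of 8.01% of the exons of the 8 mRNAs held a summit. The near-complete series of exons in BIRC6, and the many exons with a summit in UBR4 and HUWE1, thus rest mostly on weaker peaks. The median fold of all peaks on the 8 genes was 2.95 and 3.16.

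The genes without a strong pair had lower sites. The pair with the highest mean fold was in exon 26 in UBR1 (folds of 5.37 and 2.92), in exon 39 in HERC1 (5.97 and 3.38) and in exon 59 in HERC2 (3.89 and 3.74). In UBR2 it lay near the stop codon in the last exon, with 3.67 and 2.89. The summits were 1 bp apart in UBR1, 13 bp in HERC2 and 0 bp in UBR2. In HERC1 they were 117 bp apart, and that of replicate 2 lay outside the part shared by both peaks. In UBR1 and HERC1 only the peak of replicate 1 was strong, and in HERC2 and UBR2 neither was. The exons of UBR1, HERC1 and HERC2 are given for comparison with the strong sites.
UBR1 exon 26, chr15:43022702-43022801, minus strand: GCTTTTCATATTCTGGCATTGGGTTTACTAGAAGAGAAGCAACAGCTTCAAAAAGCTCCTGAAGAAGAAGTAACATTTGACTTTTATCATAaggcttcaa
HERC1 exon 39, chr15:63672496-63672694, minus strand: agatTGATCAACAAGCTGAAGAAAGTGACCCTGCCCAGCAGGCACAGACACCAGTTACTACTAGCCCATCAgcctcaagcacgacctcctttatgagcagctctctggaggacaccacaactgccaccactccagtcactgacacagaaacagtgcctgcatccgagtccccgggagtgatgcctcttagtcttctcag
HERC2 exon 59, chr15:28178887-28179030, minus strand: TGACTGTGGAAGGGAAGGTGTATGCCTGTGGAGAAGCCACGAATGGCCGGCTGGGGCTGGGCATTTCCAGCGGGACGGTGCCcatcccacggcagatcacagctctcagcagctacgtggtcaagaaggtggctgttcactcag

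Sequence around the summits was compared with the rest of the same mRNAs. TGGAC, the DNA form of an m6A consensus sequence, was present on the mRNA strand in 55 of 372 windows reaching 50 nt to either side of a summit in replicate 1 (14.8%) and 59 of 374 in replicate 2 (15.8%), and in 20 of 190 windows of this length outside all peaks (10.5%). Its core GGAC, which every TGGAC contains, was in 36.0% and 34.5% of summit windows and 26.8% of the others, and CACA, a sequence associated with IGF2BP binding, in 40.1% and 40.9% against 27.9%. Over all mRNAs, TGGAC was in 12.8% and 12.9% of summit windows and 9.54% of the others, GGAC in 32.0% and 32.0% against 26.3%, and CACA in 38.7% and 38.0% against 31.6%. In the other long mRNAs the differences were smaller, with TGGAC in 13.4% and 13.2% against 11.1%, GGAC in 31.2% and 31.3% against 29.9%, and CACA in 38.7% and 38.3% against 32.4%. Median GC content was 47.5% in the summit windows of the 8 mRNAs and 44.1% in the windows outside, and its part in the motif shares was not tested. The windows outside peaks were not matched to the summits by gene or by region, and 125 of the 190 lay wholly in the CDS. Within the CDS alone TGGAC was in 15.6% of summit windows and in 14 of these 125 (11.2%). GGAC and CACA were not compared within the CDS alone, and the part of gene and region in their shares was not tested. Among the printed exons, BIRC6 exon 24 and HUWE1 exon 30 hold TGGAC, in BIRC6 in the part outside the shared peak and in HUWE1 inside it. BIRC6 exon 68, UBR1 exons 26 and 32 and UBR2 exon 32 hold none of the 3 motifs.

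HERC2 has pseudogene copies on chromosomes 15 and 16, among which reads could be split. Of its 93 exons, 43 had a match of at least 90% identity in a HERC2P transcript. A summit was found in 16 of these 43 exons in each replicate (37.2%), and in 19 and 18 of the other 50 (38.0% and 36.0%). The difference between the 2 kinds of exon was not tested, and neither was the part of read splitting in these counts. A few summits lay in an exon of a second gene too. HERC1 shared 2 and 3 summits with ENSG00000259589, a noncoding RNA annotated on the opposite strand, and UBR4 shared 1 in replicate 2 with ENSG00000272084. The lists give no strand, and the second of these RNAs is annotated on the same strand as UBR4, so these summits were not assigned further.

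To place the 8 genes among related enzymes, 40 other ubiquitin ligases and partners were listed by family and not by their peaks, though with earlier results of these data known. Summits were present in both replicates in 30 of them (75%) and in 1 replicate in UBE2B, CUL7 and UBE2A. Over all protein-coding genes the share in both was 28.1%, and over those with a CDS of at least 5000 nt it was 54.7%. The listed genes, many of them with long mRNAs, were not matched to either set in length. The densest were HECTD4, a HECT ligase with 64 and 63 peaks in replicates 1 and 2 (a mean of 4.03 summits per kb), and MYCBP2, a giant ligase known from the nervous system with 57 and 55 peaks (3.71 per kb). The HECT ligases WWP1 (18 and 18 peaks, 3.69 per kb), UBE3B (21 and 18, 3.32 per kb) and NEDD4 (17 and 20, 3.14 per kb) followed. HECTD4 and MYCBP2 therefore lay above UBR3, HERC1 and UBR1 and below HUWE1 in both replicates. RNF213, whose mRNA of 21079 nt is longer than any of the 8, had 2.70 and 2.28 per kb, with 57 and 48 peaks. TRIP12, a HECT ligase, had 1.58 and 1.29. UBA6, an activating enzyme that loads E2 enzymes, had 2.10 and 1.78, and UBE2O, a large combined E2 and E3 enzyme, had 1 peak in each replicate (0.186 per kb).

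No summit was found in either replicate in the inhibitor of apoptosis genes BIRC5, BIRC7 and NAIP, in HECTD2 and HERC5, in UBR7, or in UBA1, the main ubiquitin-activating enzyme. Depth is unknown, so that this is only an absence from these lists. The median density of the listed genes with summits in both replicates was 1.90 per kb, next to 1.11 for all protein-coding genes with summits in both, a set not matched in length.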

How the data were processed

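RIP-seq peaks were examined in 2 IGF2BP3 RIP replicates of OE-19 cells. Per the study's methods, the authors mapped reads to hg38 with Tophat2 and called peaks with MACS2 at default settings; the submitters' processing notes name fastp, HISAT2 and MACS2, so the aligner is uncertain. The lists reach down to a −log10 p of 2.00, which is not the MACS2 default limit. Deposited values per peak, made by the authors' caller for each replicate apart, were the fold (a ratio to local background), −log10 p, −log10 q and a score (not used here). Which library was the control is not given in the sources used here, and read depth is unknown.

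Summits were assigned to exons of GENCODE release 44 without regard to strand, and placed on the Ensembl canonical mRNA. All 24 chromosomes matched the reference; 13 and 12 peaks on scaffolds were left out. Peaks were shared at an overlap of at least 1 bp, and windows reached 50 nt to either side of a summit. The genes and lists were chosen with earlier results of these data known. Named genes were the 8 members; of 40 other ligases and partners, the 5 densest, those without peaks and 8 fixed names, of which some are not reported here; the 3 mRNAs nearest to UBR4 and to BIRC6 in length and density; genes sharing a summit; and HERC2 pseudogenes. Genes just outside were the 6 others with most peaks. No test was made. Alternatives were limits on q and fold, other overlap, placement, edge and window rules, and each replicate alone; those without UBR4 and BIRC6, within the CDS, and without exons of other genes were chosen after seeing the data. The placement of summits on genes, exons and regions was tested on simulated peaks, as was the finding of overlapping peaks. The other calculations were not tested in this way. Figures were drawn with matplotlib 3.10.9, and values were computed with numpy 2.4.6 and pandas 2.3.3 in Python 3.11.15.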

Additional observations from a re-analysis of the deposited data

Results flagged for a closer look

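Peaks inside the 8 genes but with the summit outside every exon of the gene numbered 9 in replicate 1 and 7 in replicate 2, and were flagged as signal outside the main measurement. Of the 16, 14 had their summit 3 to 14 bp from an exon, and the other two, 1 per replicate, lay within an intron of HERC2 at RPL41P2, a pseudogene of a ribosomal protein gene. Their folds ran from 2.53 to 3.39, and 0 of the 16 had a q of at most 0.05.

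HERC2P2, a pseudogene of HERC2, held 8 exonic summits in replicate 1 and 11 in replicate 2, and HERC2P9 held 8 and 11 as well. Of these, 4 and 4 on HERC2P2 and 5 and 5 on HERC2P9 overlapped a peak in the other list. The median folds were 2.58 and 2.24 on HERC2P2 and 2.65 and 2.49 on HERC2P9, and none of them had a q of at most 0.05 in either replicate. HERC2P3 held 1 summit in replicate 1 and 0 in replicate 2. Whether the reads came from these copies or from HERC2 was not tested.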

How the results depend on the processing

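Of 102 alternative values, 70 stayed within the margin set for them and 32 moved. A reversal of direction was not scored. For percentages the margin was the SD of the 2 replicates, for counts a fixed factor and for the correlation a fixed difference. The totals pool these unlike margins and are no measure of stability. A single replicate always lies within the SD, so the single-replicate percentages were bound to stay and say nothing on stability. The mean number of exonic peaks on the 8 genes, 374, fell to 45.5 at a q limit of 0.05 and to 198.5 with a fold of at least 3, and was 373 to 375 in single replicates. The shared percentage, 78.3, was 61.5 with a reciprocal overlap of 50%, 56.4 with summits within 50 bp, 89.5 at a q limit of 0.05, 78.6 at a fold of at least 3 and 69.0 without UBR4 and BIRC6 (78.3 to 78.4 in single replicates). The percentage of strong peaks, 12.2, was 6.82 at a q limit of 0.01 and 9.60 to 14.7 in single replicates. The CDS percentage, 97.2, was 100 at a q limit of 0.05 and 96.9 by peak midpoints (97.1 to 97.3). The percentage of exons with a summit, 64.0, was 8.01 at a q limit of 0.05, 66.3 with any overlap and 54.3 without UBR4 and BIRC6 (63.9 to 64.1). The percentage with an edge at an exon end, 47.9, was 27.4 within 5 bp and 81.1 within 25 bp (44.4 to 51.3). The TGGAC percentage, 15.3, was 28.7 in windows reaching 100 nt to either side, with 21.5 outside peaks, and 14.6 at shared peaks (14.8 to 15.8). The correlation of folds, 0.0321, was 0.0867 for −log10 p and 0.0376 with 50% overlap. For single genes, the 15 values that moved all came from limits on q or fold. The cause was not tested, other than that limits leave fewer peaks and looser rules count more. No paired analysis was possible because the groups were not compared with each other, values of the input libraries being not analysed here. Unknown read depth and 2 replicates limit precision.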
